A study of Sus scrofa with 2 samples.

Results

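The corticosteroid receptor axis was followed through 6 genes of the pig kidney, chosen by symbol from the 31908 genes in the deposited matrices. NR3C1 (ENSSSCG00000014401) encodes the glucocorticoid receptor, and NR3C2 (ENSSSCG00000037766) encodes the mineralocorticoid receptor. HSD11B2 (ENSSSCG00000002777) encodes the enzyme that turns active cortisol into inactive cortisone. FKBP5 (ENSSSCG00000001549) encodes a co-chaperone of the receptor complex, and SGK1 (ENSSSCG00000021443) and PER1 (ENSSSCG00000017983) are hormone-induced genes that encode a kinase and a clock protein. All 6 were found in the files and had UMIs (unique molecular identifiers, 1 for each captured transcript) in both libraries.

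Pig kidneys were obtained from a slaughterhouse, flushed and kept cold, and cortex was frozen either before or after the start of warm machine perfusion. The perfusate was a balanced salt solution without albumin or red blood cells, delivered at raised pressure, and no hormone is named among its components. Nuclei of 1 unperfused and 1 perfused piece were sequenced, and neither the breed, the age nor whether both pieces came from the same animal is stated in the labels. With 1 library in each group there was no replicate check and no test: intervals below are exact 95% intervals that cover counting error only, and a difference between the libraries cannot be told apart from a difference between animals or pieces.

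After filtering, 6389 unperfused and 5421 perfused nuclei remained, with a median of 3755 and 4383 UMIs. Clusters were named after the marker list they were closest to, so each class is "like" the cell type it is called by. Distal classes were the connecting tubule (CNT), principal cells (PC), the distal convoluted tubule (DCT) and the intercalated cells of type A (IC-A) and type B (IC-B). Upstream of them were podocytes (PODO), the proximal tubule (PT), an injured PT class and the loop of Henle (LOH), and the remaining classes were endothelium (EC), stroma (STROMA), immune cells (IMM) and cycling cells. In 11 of the 13 classes most of the markers found in the files were highest in their own class, but this held for 2 of 6 markers of injured PT and 3 of 6 of the DCT. The libraries differed in composition. IMM made up 4.99% of the unperfused and 16.9% of the perfused nuclei, and the CNT made up 8.09% and 4.13%. IMM was 1 cluster that split, at a finer resolution, into a cluster led by RUNX1, ARHGAP15 and PTPRC and an unnamed one of fewer UMIs per nucleus led by CST3, DCN, COL1A1 and mitochondrial genes. The unnamed one held most of the class, 168 of 319 unperfused and 566 of 916 perfused nuclei, and its closest marker list was also that of immune cells. Its leading genes held DCN, a marker on the stroma list, and none of the immune list, so the naming rule gave it no name. Of 4 adrenocortical markers, which would show adrenal tissue in the sample, CYP11A1 was at 0 in both libraries, NR5A1 had 1 UMI in all, CYP17A1 had 4 and 1 UMIs, and STAR had 698 and 603 UMIs with its highest level in IC-B.

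Cortisol and aldosterone both bind the mineralocorticoid receptor, and cortisol circulates at far higher levels. In the aldosterone-sensitive distal nephron HSD11B2 removes cortisol, so that aldosterone can act there on sodium channels and transporters. Without hormone, the receptors rest largely in the cytoplasm in a complex with HSP90 and its partners, and the ligand-bound receptors move to the nucleus and act on DNA. FKBP5 lowers the affinity of the glucocorticoid receptor for its hormone and is itself one of its strongest targets, as are PER1 and, through either receptor, SGK1.

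The gene that guards the mineralocorticoid receptor was concentrated in the CNT and PC. HSD11B2 reached 129 CPM (UMIs per 1000000 UMIs of the class and library; interval 114 to 145) in the unperfused and 108 CPM (91.6 to 127) in the perfused CNT. In PC the levels were 130.0 CPM (105 to 159) and 84.3 CPM (65.6 to 107). In level both classes stood above every other class in either library, and their intervals overlapped each other and, in the perfused library, PC overlapped IC-B. IC-B followed with 78.6 and 45.6 CPM, IMM with 65.0 and 34.6 CPM and the DCT with 54.3 and 32.4 CPM. At the other end, the PT held 11.5 and 4.97 CPM, and PODO held 5 UMIs unperfused and 0 UMIs perfused, where 3 UMIs, the limit taken for a count of 0, would be 13.4 CPM. At least 1 HSD11B2 UMI was seen in 37.9% and 43.3% of unperfused and perfused CNT nuclei, at median depths of 4000 and 5888.5 UMIs, and in 6.13% and 3.25% of PT nuclei, at 5289.5 and 6623 UMIs. With each nucleus thinned to 1000 UMIs (6 and 2 CNT and 12 and 24 PT nuclei were shallower and left out), a draw that leaves few UMIs, the shares were 11.5% and 8.11% in the CNT and 1.64% and 0.425% in the PT.

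NR3C2 marked the same end of the tubule. The CNT had 2392 CPM (interval 2328 to 2456) unperfused and 2884 CPM (2796 to 2974) perfused, PC had 2130 and 2567 CPM, and the DCT had 2150 and 2411 CPM. These 3 classes did not overlap any other class in either library. IC-B (1459 and 1608 CPM), LOH (1348 and 1289 CPM) and IC-A (1096 and 1507 CPM) formed a second tier. IC-B and LOH overlapped in the unperfused library and IC-B and IC-A in the perfused one, and the order of LOH and IC-A differed between the libraries. PODO (617 and 565 CPM), cycling cells (680 and 507 CPM), EC (386 and 440 CPM) and STROMA (448 and 374 CPM) were lower, and so were injured PT (235 and 378 CPM) and IMM (286 and 250 CPM). The PT had the lowest level, 59.0 CPM (54.4 to 63.9) and 62.1 CPM (56.8 to 67.7), with the CNT 43.6-fold above it in the mean of both libraries. With the estimated free RNA described below subtracted, 0 and 27.6 CPM were left in the PT, so the fold depends on that estimate. Whether the PT level is background was not tested. Within the LOH, NR3C2 differed between the 2 clusters of the class: the cluster led by SLC12A1 and SIM2 had 1203 and 1181 CPM, and the cluster led by SCN9A and HS6ST3 had 2028 and 2152 CPM.

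NR3C1 was spread more widely and was lowest in the 3 classes where NR3C2 was highest. EC had 366 CPM (343 to 389) unperfused and 413 CPM (385 to 442) perfused, and IMM had 381 and 381 CPM. STROMA (281 and 387 CPM), IC-B (275 and 390 CPM), LOH (239 and 296 CPM), IC-A (246 and 253 CPM), injured PT (200.4 and 231 CPM) and PT (185 and 212 CPM) followed, each overlapping its neighbour in the order, and cycling cells had 113 and 338 CPM. A step then separated the PT from PODO (78.0 and 67.2 CPM), where neither the ranges nor the intervals overlapped. The DCT had 24.9 and 45.5 CPM, PC 19.0 and 18.3 CPM and the CNT 10.3 and 14.1 CPM, the last from 23 and 20 UMIs. Once the estimated free RNA described below was subtracted, no NR3C1 or FKBP5 UMI was left in the CNT in either library. None was left in the DCT either, where the estimate is far larger and rests on UMOD. Both levels in the CNT were thus no higher than that estimate allows, and whether they are background was not tested. At least 1 NR3C1 UMI was seen in 3.68% of unperfused and 8.04% of perfused CNT nuclei, all of which also had NR3C2. EC exceeded the CNT 31.9-fold in the mean of both libraries.

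**Figure D1:**
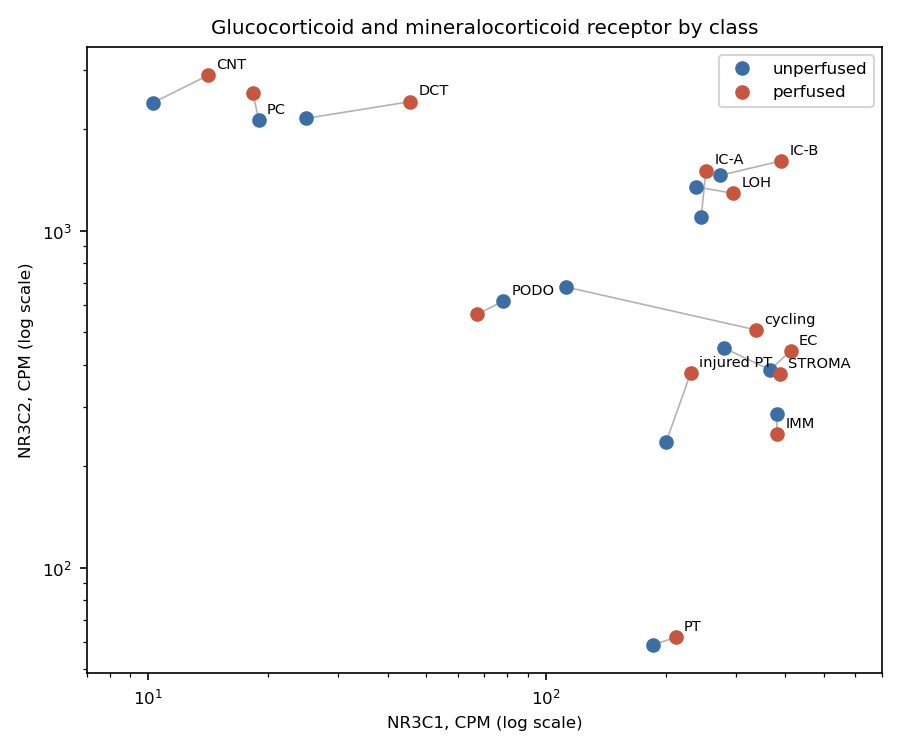
Level of NR3C2 (vertical axis) against that of NR3C1 (horizontal axis) in each cell class, in UMIs per 1000000 UMIs on log scales, with a line joining the unperfused (blue) and perfused (red) value of a class. CNT, PC and DCT sit at upper left with NR3C2 above 2100 and NR3C1 below 50, the PT sits at the bottom, and LOH, IC-A and IC-B combine both receptors.

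The balance of the receptors could be followed as the NR3C2 share of the UMIs of both genes. Gene length affects this share, so it was compared between classes and not read as a ratio of proteins. NR3C2 took 99.6% (interval 99.4 to 99.7) of receptor UMIs in the unperfused CNT and 99.5% in the perfused CNT, 99.1% and 99.3% in PC, and 98.9% and 98.1% in the DCT. It took 85.0% and 81.3% in LOH, 81.7% and 85.6% in IC-A, 84.2% and 80.5% in IC-B, and 88.8% and 89.4% in PODO. In EC the share was 51.3% and 51.6%, in IMM 42.9% and 39.5%, and in the PT 24.1% (22.5 to 25.9) and 22.7% (21.0 to 24.4). STROMA had 61.5% (57.9 to 64.9) and 49.1% (46.1 to 52.1), and cycling cells had 85.8% (79.7 to 90.6) and 60% (50.2 to 69.2). The estimate of free RNA weighs on these 2 classes and on the PT and IMM. After its subtraction 0 and 217 NR3C2 UMIs were left in the PT, of 597 and 512. In IMM 76.6 and 204 were left, of 211 and 677. STROMA kept 220 and 339, of 483 and 542, and cycling cells kept 82.6 and 33.8, of 151 and 66. Under that estimate the NR3C2 share of the PT and IMM would be lower than these values. Injured PT stood at 54.0% (47.4 to 60.5) and 62.0% (57.3 to 66.6), apart from the PT in both libraries. Among CNT nuclei with an HSD11B2 UMI, 99.5% of unperfused and 100% of perfused nuclei also had an NR3C2 UMI, beside 99.2% and 99.6% of all CNT nuclei, so the pair was detected together in nearly every nucleus in which HSD11B2 was seen.

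FKBP5, the co-chaperone and target, was abundant in 8 classes and nearly absent from 3. IMM had 421 and 457 CPM, STROMA 401 and 476 CPM, PT 391 and 407 CPM, PODO 352 and 381 CPM, EC 342 and 333 CPM, LOH 305 and 353 CPM, cycling cells 261 and 346 CPM and injured PT 309 and 295 CPM. In this group each class overlapped its neighbour in interval. IC-A (89.5 and 88.5 CPM) and the DCT (62.2 and 70.0 CPM) lay between. The CNT had 18.7 and 19.1 CPM, IC-B 13.4 and 26.9 CPM and PC 9.48 and 24.4 CPM, and these 3 overlapped each other. IC-B thus combined a high NR3C1 level with a low FKBP5 level, while IC-A, with less NR3C1, had 89.0 CPM of FKBP5 in the mean of both libraries against 20.1 CPM in IC-B. Inside the PT, the cluster led by ADCY8 and PGC had 487 and 550.4 CPM and the cluster led by SLC7A8 and STRA6 had 347 and 343 CPM.

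SGK1, the kinase that keeps the sodium channel ENaC at the membrane, was highest in endothelium. EC had 263 CPM (243 to 283) unperfused and 183 CPM (165 to 203) perfused, 2.32-fold above IMM (97.6 and 94.7 CPM) in the mean. Cycling cells (76.5 and 53.8 CPM), LOH (67.6 and 60.3 CPM), PT (63.7 and 49.1 CPM), STROMA (42.7 and 44.9 CPM), CNT (46.4 and 34.6 CPM) and IC-A (42.7 and 29.8 CPM) followed with overlapping intervals, and injured PT, DCT and PODO had 13.4 to 34.0 CPM. PC, a class in which aldosterone is known to induce SGK1, had 12 and 8 UMIs, or 16.2 and 9.77 CPM. IC-B alone among the classes was lower, with 8 and 3 UMIs. Within EC, the main cluster had 279 and 192 CPM, and the cluster led by DGKB and IL33, which also expressed PLAT and EHD3, had 181 and 150.2 CPM.

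PER1 varied least, 4.16-fold between its highest and lowest class. LOH had 186 and 207 CPM, PT 186 and 188 CPM, STROMA 176 and 179 CPM and EC 166 and 164 CPM, with IMM at 115 and 148 CPM. IC-A (102.8 and 89.5 CPM), injured PT (93.8 and 97.3 CPM), cycling cells (72.0 and 108 CPM) and PODO (94.6 and 76.2 CPM) were intermediate. The DCT (60.9 and 63.9 CPM), PC (62.3 and 55.0 CPM), IC-B (60.8 and 43.5 CPM) and CNT (42.3 and 52.2 CPM) were lowest and overlapped each other.

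**Figure D2:**
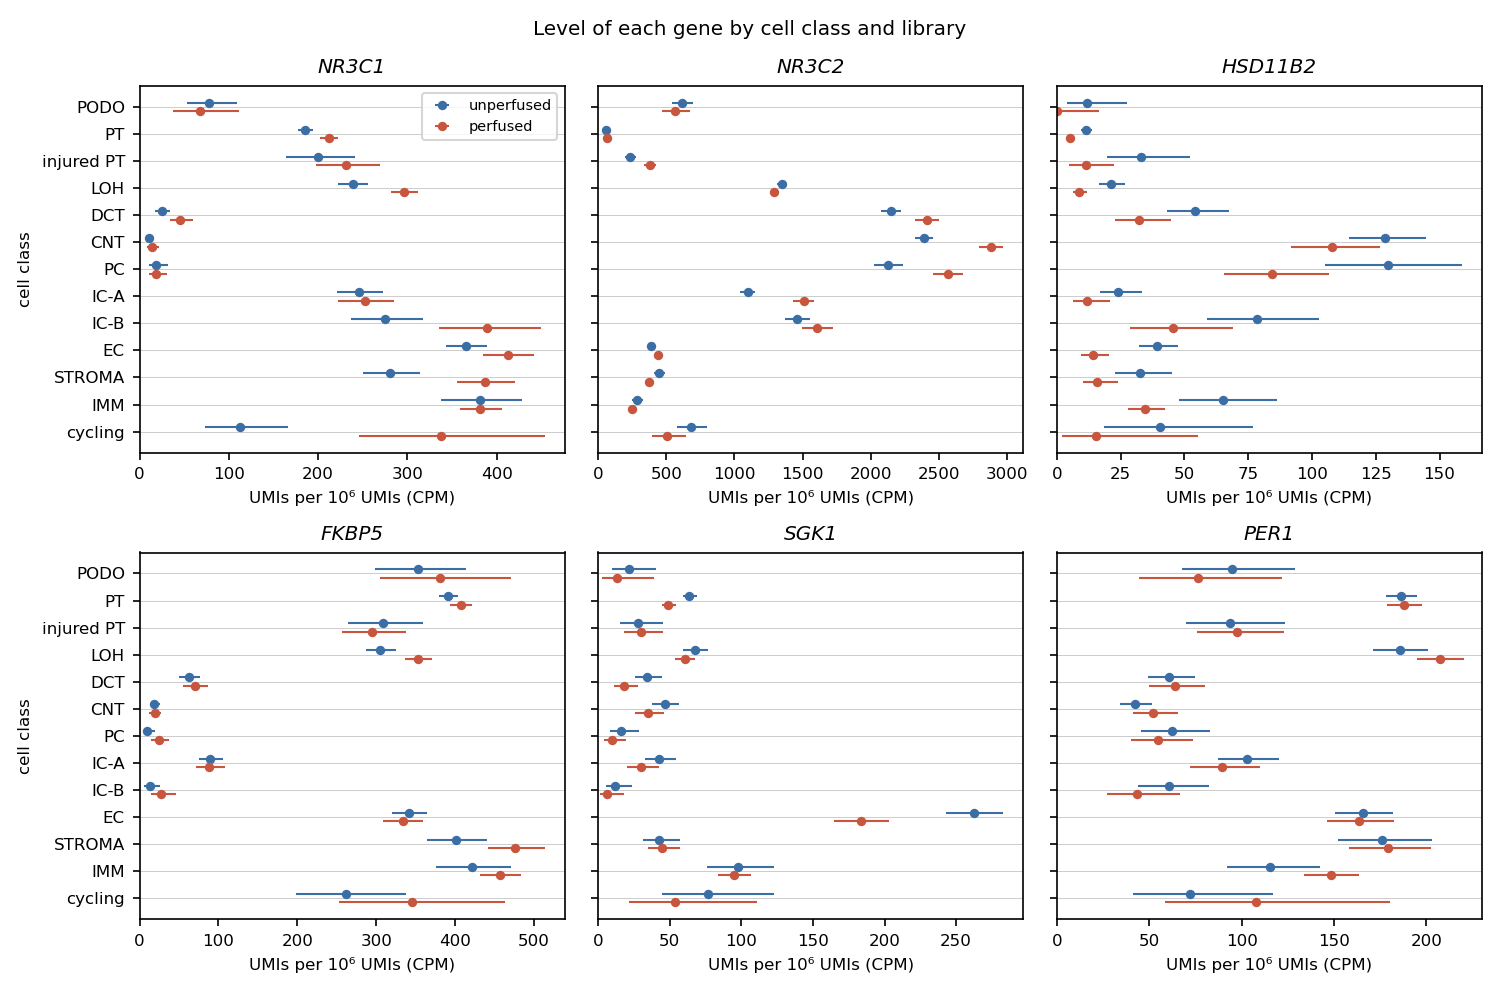
Level of each gene (horizontal axis, UMIs per 1000000 UMIs, each panel with its own scale from 0) by cell class (vertical axis) in the unperfused (blue) and perfused (red) library; bars are exact 95% intervals for counting error. NR3C2 and HSD11B2 peak in CNT and PC, NR3C1 and FKBP5 are lowest there, and SGK1 peaks in EC. HSD11B2 is lower in the perfused library in the 12 classes with a ratio, and PODO, with 5 and 0 UMIs, has none.

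Across the 13 classes the profiles of the 6 genes fell into 2 sets. On the scale of log2(mean CPM of both libraries + 5), FKBP5 and PER1 had a Pearson r of 0.84, NR3C1 had r = 0.65 with FKBP5 and 0.68 with PER1, and NR3C2 had r = 0.61 with HSD11B2. Between the sets r was negative, with -0.58 for NR3C1 and NR3C2 and -0.77 for NR3C2 and FKBP5. These r describe 13 classes that share 2 libraries and their depth. Of 10933 other genes with a symbol and enough UMIs, those closest in profile included MTHFD1L, NEBL and TRAPPC10 for NR3C1 (r = 0.91, 0.91 and 0.90), FRRS1, KLHL4 and ASMTL for NR3C2 (0.94, 0.92 and 0.92), and CAPG and NBN for HSD11B2 (0.89 and 0.87). CAMK1D, PLEKHG1 and MERTK were closest to FKBP5 (0.89, 0.88 and 0.87), and TGFBR2, CISH and TSPAN18 to SGK1 (0.87, 0.86 and 0.86). For PER1 they were KLF9 (0.88), itself a glucocorticoid-induced transcription factor, ZC3H7B (0.86) and FKBP5.

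The perfused and unperfused libraries were then compared within each class. A pair of a gene and a class was counted when it had at least 50 UMIs over both libraries, and called when the levels differed at least 1.5-fold. Of 63 counted pairs of the 6 genes, 3 were higher and 9 were lower in the perfused library, or 4.76% and 14.3%. Over all 90540 counted pairs of a gene and a class, 5.29% were higher and 11.3% were lower, so both shares were near the background. The lower calls were concentrated in 1 gene: 8 of the 9 belonged to HSD11B2. Scaling by TMM factors in place of total UMIs shifts all genes of a class by -0.14 (cycling cells) to 0.20 (IMM) on the log2 scale, and ratios of this size are given as values only.

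HSD11B2 was lower after perfusion in all 12 classes with a ratio, under either other scaling as well. Of these, injured PT (18 and 8 UMIs), IC-A (36 and 12 UMIs) and cycling cells (9 and 2 UMIs) were under 50 UMIs and not counted. Taken as perfused over unperfused, its log2 ratio was -1.49 in EC (interval -2.14 to -0.87, from 39.3 and 14.0 CPM), -1.28 in LOH, -1.21 in PT, -1.03 in STROMA, -0.91 in IMM, -0.79 in IC-B and -0.75 in DCT. In the classes with the highest levels it was closer to 0, with -0.63 (-1.09 to -0.16) in PC and -0.25 (-0.55 to 0.03) in the CNT. The ratio nearest 0 was thus that of the CNT, whose interval reached 0. The call in PC was lost under TMM factors (-0.47), DESeq2 size factors (-0.48) and as a mean of single nuclei (-0.41), and the call in IMM was lost with thinning (-0.44). Over all nuclei HSD11B2 had 36.8 and 20.0 CPM (981 and 543 UMIs), a log2 ratio of -0.88, beside a median of -1.02 over the 12 classes with a ratio. The CNT, with the highest mean HSD11B2 level, made up a smaller share of the perfused nuclei, and PC made up 2.75% and 2.79%. What these shares add to the value over all nuclei was not tested. Some transcripts of other segments were also lower outside their segment: PCK1 of the PT was at 195 and 99.1 CPM in EC, beside 2163 and 2335 CPM in the PT itself, and FXYD4 of PC was at 49.2 and 18.5 CPM in EC, beside 772 and 989 CPM in PC. Others were level in EC, with LRP2 of the PT at 142 and 144 CPM and UMOD of the LOH at 226 and 226 CPM. These patterns differed by class. In STROMA FXYD4 was at 30.6 and 31.1 CPM, LRP2 at 454 and 194 CPM and PCK1 at 412 and 244 CPM. In IMM FXYD4 was at 70.5 and 66.3 CPM. FXYD4 was called lower in 4 of its 8 counted classes. The share of free RNA, estimated from LRP2, CUBN, SLC12A1 and UMOD outside their segment, was 10.8% and 9.60% in EC, 8.76% and 4.58% in the PT and 8.03% and 7.01% in the CNT. With that share subtracted, the log2 ratio of HSD11B2 was -1.57 in EC, -1.09 in the PT and -0.26 in the CNT. The estimate assumes that free RNA has the profile of the whole library, and for the DCT (49.8% and 50.3%) it rests on UMOD, which was at 2472 and 2936 CPM there. Whether free RNA of another profile contributes was not tested.

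**Figure D3:**
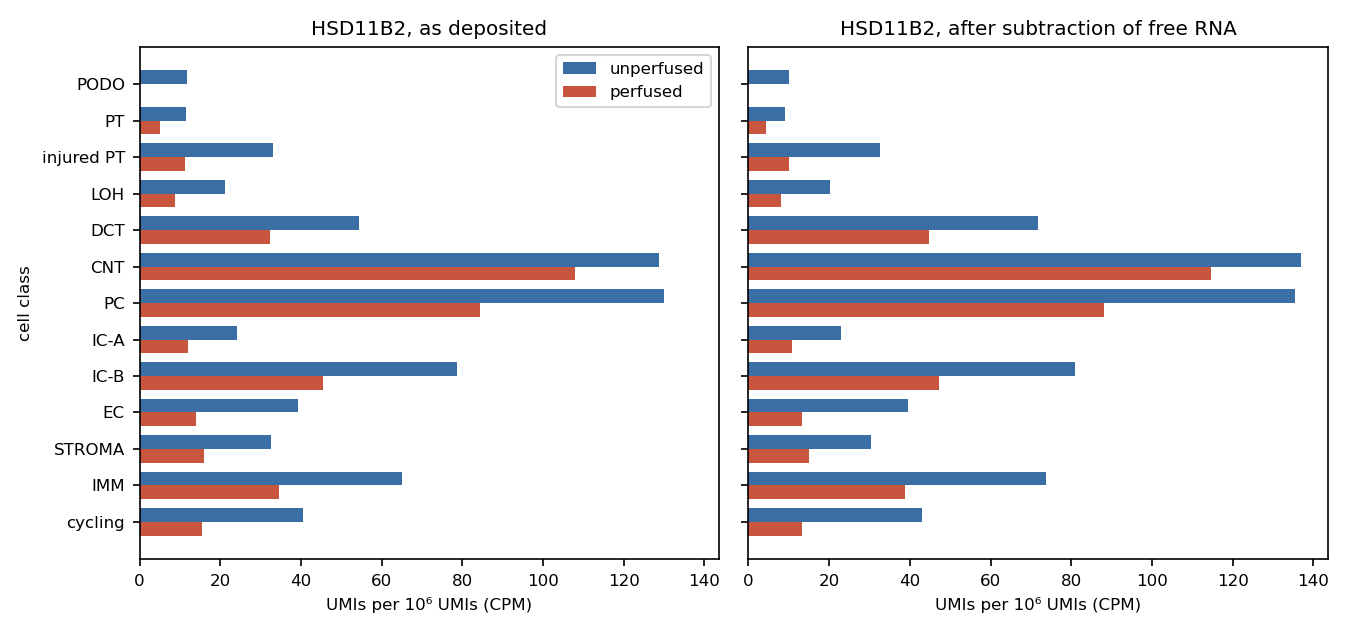
HSD11B2 level (horizontal axis, UMIs per 1000000 UMIs) by cell class (vertical axis) in the unperfused (blue) and perfused (red) library, as deposited (left) and after the estimated free RNA was subtracted (right). The perfused bar is shorter in every class on both sides, and the relative gap is smallest in the CNT (108 against 129 as deposited). In PODO the gap rests on 5 and 0 UMIs, which gave no ratio.

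The receptors differed less between the libraries. NR3C1 was called higher in the DCT (24.9 and 45.5 CPM, 38 and 52 UMIs, log2 ratio 0.87, interval 0.24 to 1.51) and in cycling cells (113 and 338 CPM, 25 and 44 UMIs, 1.59, 0.85 to 2.36), both classes with few NR3C1 UMIs. With thinning the DCT ratio was 0.25. After free RNA subtraction no NR3C1 UMI was left in the DCT, which leaves no ratio. The DCT estimate rests on UMOD, so the subtraction cannot decide on this call. The cycling cells were 38 unperfused and 20 perfused nuclei, and 1 perfused nucleus held 14 of the 44 UMIs. Their ratio was 0.55 when called doublets were kept. After free RNA subtraction (40.2% and 31.7% of the class) it was 2.75, from 7.44 and 33.5 UMIs. Ratios with an interval above 0 and below 1.5-fold were seen in IC-B (0.51), STROMA (0.46), LOH (0.31), PT (0.19) and EC (0.17), and IMM was level at 0.00 (-0.19 to 0.20). Within STROMA the ratio was 0.60 (0.37 to 0.83) in the cluster led by KCND3 and CYP7B1 (297 and 450.2 CPM), beside 0.11 (-0.35 to 0.58) in the cluster led by ANO3 and MYH11. Over all nuclei NR3C1 had 197 and 254 CPM, a log2 ratio of 0.37 that also holds the change in class shares.

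NR3C2 was called higher in injured PT only, at 235 CPM (196 to 280) unperfused and 378 CPM (334 to 426) perfused, a log2 ratio of 0.68 (0.37 to 0.999). With the listed genes allowed among the variable genes used for clustering, it was 0.55. The next ratios were 0.46 (0.36 to 0.56) in IC-A, 0.27 (0.21 to 0.33) in the CNT and 0.27 (0.17 to 0.36) in PC. EC had 0.19 (0.06 to 0.32), the DCT 0.17 (0.09 to 0.24) and IC-B 0.14 (0.003 to 0.28). Somewhat higher values in the perfused library were thus not particular to the 3 classes with most NR3C2. In STROMA the ratio was -0.26 (-0.44 to -0.08), with -0.44 (-0.67 to -0.21) in the cluster led by KCND3 and CYP7B1. After free RNA subtraction (31.9% and 17.9% of STROMA) it was -0.067. No class had an NR3C2 interval below 0 under all 3 scalings (total UMIs, TMM factors and DESeq2 size factors). The small ratio in LOH, -0.07, turned positive under the other scalings, and NR3C2 over all nuclei was at 766 and 780 CPM.

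FKBP5 had no call in 11 counted classes. Its ratios were 0.25 (0.07 to 0.43) in STROMA, 0.21 (0.10 to 0.32) in LOH, 0.12 (-0.06 to 0.30) in IMM, 0.06 in PT and -0.03 in EC. The largest, 1.37 in PC, rests on 7 and 20 UMIs and its class was not counted. PER1 also had no call in 12 classes, with 0.36 (0.02 to 0.72) in IMM and 0.16 (0.01 to 0.31) in LOH as the only ratios with an interval off 0. SGK1 was called lower in the DCT (34.0 and 18.4 CPM, 52 and 21 UMIs, -0.89, -1.69 to -0.13). Free RNA subtraction left no SGK1 UMI in the DCT and so no ratio. The DCT estimate (49.8% and 50.3%) rests on UMOD, so the subtraction cannot decide on this call. In EC, where SGK1 is most abundant, its level was lower by less than 1.5-fold with a narrow interval (-0.52, -0.71 to -0.33, 688 and 366 UMIs). In PT the SGK1 ratio was -0.38 (-0.56 to -0.20). In IMM (-0.04) and STROMA (0.07) the SGK1 levels lay within counting error.

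**Figure D4:**
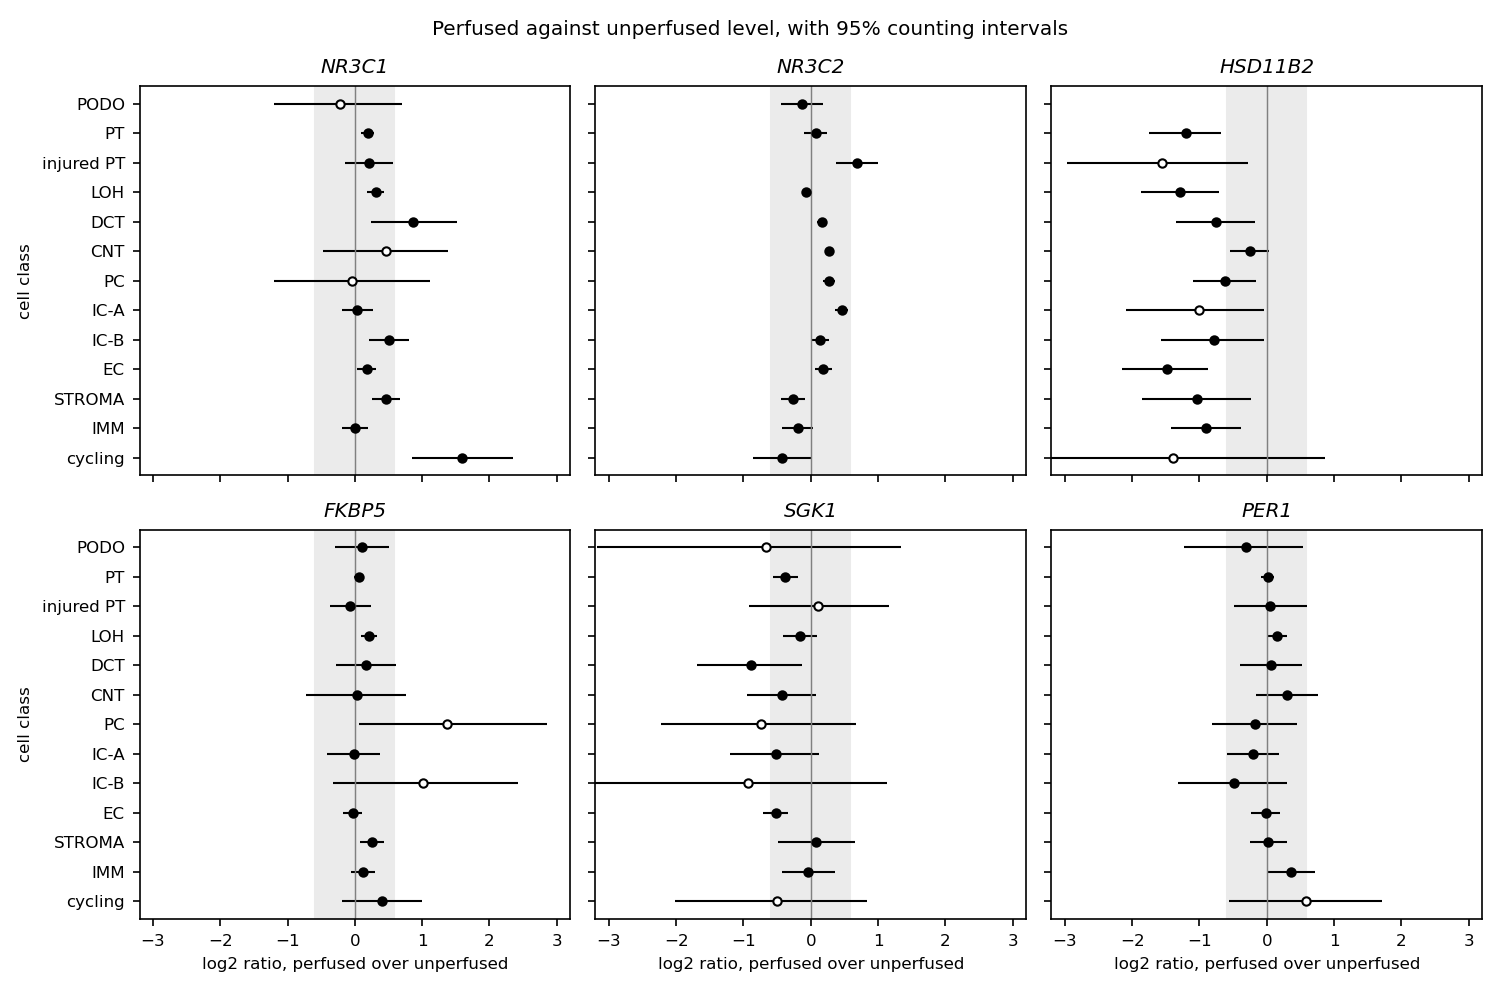
Log2 ratio of the perfused over the unperfused level (horizontal axis) of each gene by cell class (vertical axis), with exact 95% counting intervals, cut at the edge of the panel where longer. Filled points have at least 50 UMIs, open points fewer, and the grey band spans ratios under 1.5-fold; 8 of 9 filled HSD11B2 points lie left of the band and the filled FKBP5 and PER1 points lie inside it.

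Other genes of the pathway were read from 8 lists of 116 genes, 108 of which were in the files. They were chosen with earlier results of these data known and their medians are descriptions. The median log2 ratio over all counted pairs of all genes was -0.04, and the shares of pairs called in a list stand against 5.29% higher and 11.3% lower over all genes.

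The receptor chaperones had the lowest list median. Of 115 pairs, 29 were lower and 2 higher in the perfused library (25.2% and 1.74%), with a median of -0.29 that was -0.19 under TMM factors. DNAJB1, an HSP40 that loads clients onto HSP70, had a median of -0.65 over 12 classes, with 351 and 160.2 CPM in STROMA and 45.3 and 21.9 CPM in the PT. Its levels were highest in PC (1285 and 942 CPM, ratio -0.45) and the CNT (731 and 503 CPM, -0.54), where it was not called. HSPA8, the constitutive HSP70, had a median of -0.56 over 13 classes and was at 208 and 117 CPM in EC. PPID, a cyclophilin that competes with FKBP5 for HSP90, had -0.66 over 7 classes, and BAG1, an HSP70 exchange factor, had -0.48 over 7. HSP90AA1, which holds the receptors themselves, had a median of 0.04 over 13 classes, and FKBP4, the immunophilin that replaces FKBP5 in the complex, had 0.13 over 4; both genes were named after their values were seen.

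Glucocorticoid targets did not move as 1 group. Of 143 pairs, 12 were higher and 32 lower (8.39% and 22.4%), with a median of -0.13. G6PC1 and PCK1, the gluconeogenic enzymes, had medians of -0.68 and -0.65, but in their own segment, the PT, their ratios were -0.13 (1336 and 1220 CPM) and 0.11 (2163 and 2335 CPM), and their lower calls (6 and 8 classes) were outside it. MT1A, a metallothionein, had -0.65 over 6 classes. DDIT4, an inhibitor of mTORC1 that also responds to energy stress, had -0.62 over 9, with 217 and 86.7 CPM in PC. ZBTB16 had a median of 0.33 over 11 classes and TSC22D3, which encodes the mediator GILZ, 0.42 over 6, with 2 classes and 1 class called higher. Both were singled out after their values were seen, and other targets of the list lay on either side of 0. KLF9 had -0.17 over 9 classes, KLF15 -0.22 over 5, PDK4 -0.30 over 10 and NFKBIA -0.26 over 6. Above 0 were, for example, ERRFI1 (0.13 over 10) and IRS2 (0.15 over 10).

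Mineralocorticoid targets stayed near the median of all genes, with 3 of 118 pairs higher, 12 lower (2.54% and 10.2%) and a median of -0.03. The ENaC subunit SCNN1A had a median of -0.11 over 9 classes, with 0.25 (-0.18 to 0.69) in PC. The other subunits, counted in fewer classes than the rule for named genes asks, were above 0: SCNN1B had 0.37 over 2 classes and SCNN1G 0.43 over 3, with 1 class called higher. Other targets of the list counted in as few classes were below 0. KCNJ1 had -0.85 over 3 classes, all 3 called lower, KCNJ10 had -0.23 over 3 and EDN1 -0.19 over 1. FXYD4, a regulator of ion transport, had -0.81 over 8 classes with 4 lower calls, all outside PC, and USP2, a deubiquitinase, had 0.22. By profile over the classes, 8 of 14 mineralocorticoid targets had r above 0.5 with NR3C2, beside 13.8% of all genes, and none had it with NR3C1. Many of these listed targets are transport genes highest in distal classes, as NR3C2 is. The choice of list thus favours a shared profile, and regulation by the receptor was not tested. Of 22 glucocorticoid targets, 6 had r above 0.5 with NR3C1, beside 11.6% of all genes, and 1 with NR3C2.

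Of the remaining lists, coregulators (median 0.01 over 142 pairs, 1.41% higher and 3.52% lower) and the SGK1 pathway (0.05 over 90 pairs, 2.22% and 3.33%) had few calls. Among coregulators the medians of NCOR1, MED1 and HDAC2 were -0.30, -0.21 and -0.09. In the SGK1 pathway NDRG1, a substrate of the kinase, had 0.25 and NEDD4L, the ubiquitin ligase that SGK1 restrains, 0.11, with MAPKAP1 at 0.10 and FOXO3 at -0.04. Clock genes had a median of 0.03 over 99 pairs with 6 higher and 3 lower (6.06% and 3.03%). CRY2, a repressor in the same complex as PER1, had 0.32 and was called higher in PC, CNT and injured PT. HLF, NR1D2 and RORA had -0.34, -0.25 and 0.17, but HLF was called higher in PC (0.89) and injured PT (0.64) and lower in STROMA (-0.68). In steroid access (median -0.04 over 21 pairs, 3 higher and 4 lower, or 14.3% and 19.0%) the progesterone receptor PGR had 0.65 over 6 classes, with 33.4 and 89.1 CPM in STROMA but 16.6 and 7.26 CPM in LOH, and H6PD, which feeds NADPH to HSD11B1, had 0.00.

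Immediate early genes, which respond within minutes to many stimuli, had the highest list median, 0.21 over 69 pairs, with 16 higher and 11 lower (23.2% and 15.9%). EGR1 had 0.66 over 6 classes, and in PC it was at 160 and 454 CPM. ZFP36 (0.35) and KLF6 (0.31) were also above 0, and NR4A1 was below 0 (-0.61 over 8 classes, 5 of them lower). PC had the highest median of this list (0.89 over 7 genes) and the PT the lowest (-0.40 over 9).

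**Figure D5:**
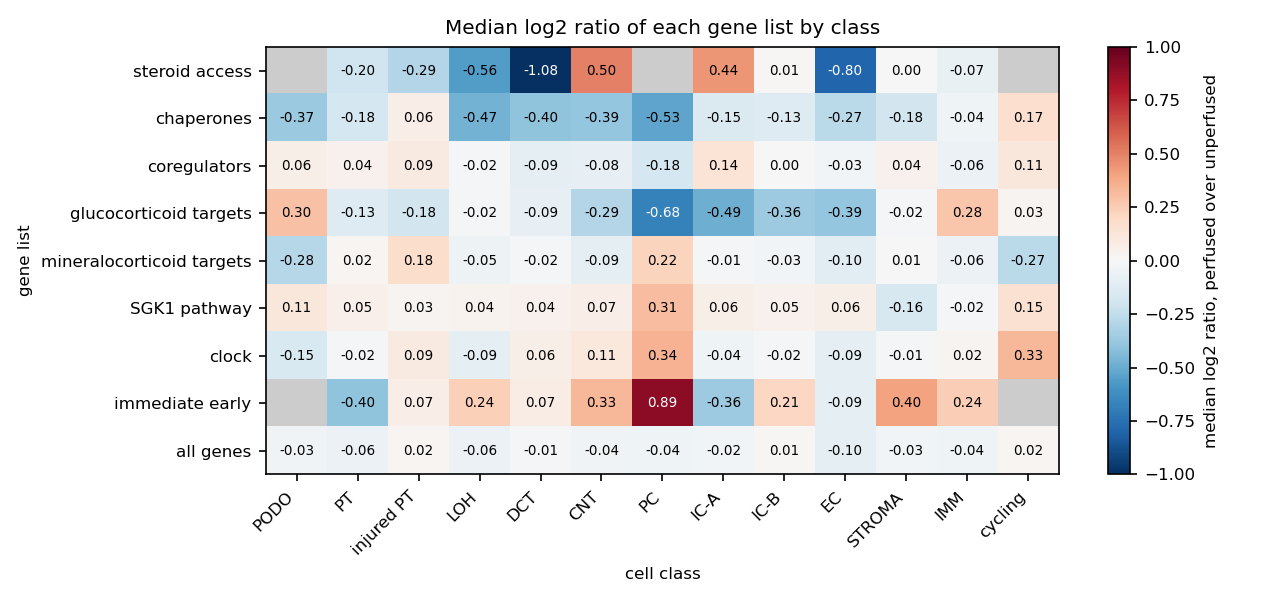
Median log2 ratio of perfused over unperfused (colour and printed value) of each gene list (rows) in each cell class (columns), with all genes in the bottom row; grey cells had no gene with at least 50 UMIs. Chaperones are below 0 in 11 of 13 classes, with that of IMM (-0.04) smaller than its shift under TMM factors (0.20), and some cells rest on 1 gene, such as steroid access in the DCT (H6PD alone, -1.08).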

How the data were processed

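Nuclei were isolated from frozen renal cortex and sequenced with the Chromium 3' v3.1 kit. The deposited matrices hold raw UMI counts per gene and nucleus; the authors made them with Cell Ranger 5.0.1, introns included, against the Sscrofa genome and annotation of an Ensembl release given in the methods (the assembly name is not given in the sources used here). Missing symbols were filled for 822 identifiers. Nuclei with 500 to 6000 genes and no more than 7% of UMIs from mitochondria passed, and Scrublet removed 641 unperfused and 489 perfused calls. The libraries shared 14 barcodes. Nuclei were integrated and clustered with Seurat 5.3.0 (R 4.3.3; 2000 variable genes without the members and lists, 15 components, resolution 0.5). A cluster took the name of its closest marker list if its mean log2 fold was above 0, with at least 3 markers above 2-fold in 10% of its nuclei. Its 10 leading genes also had to hold no more genes of any other list than of its own. A cluster of low depth for its library needed a gene of its own list among them. The numbers in this rule were set after the clusters were seen, and it left clusters 11, 14 and 17 unnamed (1.14% and 3.34%, 2.27% and 1.49%, 0.923% and 1.60% of unperfused and perfused nuclei).

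UMIs were summed per class and library. Levels have exact Poisson intervals, and ratios and shares have exact binomial intervals. A count of 0 was set to 3 UMIs in ratios. The ratio was tested on simulated counts. Members and lists were chosen with earlier results of these data known. Named genes were the 6 members, up to 4 genes of each list with the largest absolute median ratio among those counted in at least 5 classes, and the 3 closest in profile to each member with at least 200 UMIs; some of these are not reported here. Alternatives used other clusterings and filters, TMM factors (edgeR 4.0.16), DESeq2 1.42.0 size factors, free RNA subtraction, thinning and other weights.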

Additional observations from a re-analysis of the deposited data

How the results depend on the processing

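The medians of the 6 genes over classes and of the 8 lists stayed within the median of their counting intervals under each of the 13 alternatives that gave them. Those limits come from intervals of single pairs, which are wide for a median of many pairs, so this is a weak check. Of the recomputed ratios of a gene in 1 class, 876 stayed within the interval of the reported value and 53 left it, and no called ratio changed sign. Over all nuclei, TMM factors gave 0.47 for NR3C1, 0.13 for NR3C2, 0.31 for FKBP5, -0.16 for SGK1 and 0.24 for PER1, and DESeq2 size factors gave 0.46, 0.12, 0.30, -0.17 and 0.24. With nuclei thinned to 1000 UMIs these ratios were 0.31 for NR3C1, -0.11 for NR3C2, -0.40 for SGK1 and 0.0653 for PER1, and as a mean of single nuclei NR3C2 was at -0.0932 and SGK1 at -0.39. Pairs higher and lower at least 1.5-fold numbered 1 and 1 with thinning (36 pairs), 0 and 5 with subclusters weighted equally (30 pairs), 5 and 15 with no minimum of UMIs, 1 and 0 at 200 UMIs and 1 and 4 at 2-fold. At 200 UMIs fewer pairs are tested (40 of 63), and every lower call had 165 UMIs or fewer, so none could remain. Fewer pairs are also counted with thinning and with equal weights, and 2-fold is a stricter cut. Further causes of these changes were not tested. The class with the highest level was the same for HSD11B2, SGK1 and PER1 under all alternatives in which levels were ranked. Levels were not ranked with TMM factors, DESeq2 size factors or subclusters weighted equally. NR3C1 was highest in IMM, not EC, at resolution 1.0 and after free RNA subtraction, and FKBP5 was highest in STROMA, not IMM, in 5 alternatives. NR3C2 was highest in the DCT after subtraction. The DCT share of free RNA (49.8% and 50.3%) rests on UMOD, so this rank cannot be judged. Without integration no injured PT class was found. No paired analysis was possible because each group has 1 library. Among pairs with under 50 UMIs, depth limits NR3C1 in the CNT, PC and PODO, and FKBP5 in PC and IC-B. It limits SGK1 in PC, IC-B, PODO, injured PT and cycling cells, and PER1 in cycling cells. It also limits HSD11B2 in PODO, injured PT, IC-A and cycling cells. No comparison of the libraries has a replicate.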

Other observations

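3 clusters stayed without a class name. They are part of the totals of nuclei and of the values over all nuclei, but enter no class and no count of pairs above. Cluster 11, led by POU2F3, SLC5A8 and NRG3, had 312 (unperfused) and 271 (perfused) CPM of NR3C1, 486 and 429 CPM of FKBP5, 138 and 129 CPM of SGK1 and 187 and 133 CPM of NR3C2. Its SGK1 level was above that of every named class except EC. Cluster 14, led by DPP10 and SLIT3, had more NR3C2 (449 and 744 CPM, log2 ratio 0.73, interval 0.42 to 1.04) and more PER1 (127 and 282 CPM, 1.15, 0.59 to 1.72) in the perfused library, from 159 and 187 and from 45 and 71 UMIs. In cluster 17, led by GALNT14 and EPHA7, HSD11B2 had 5 UMIs unperfused and 0 perfused, and SGK1 had 0 and 3.

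IMM held 2 groups of nuclei that differed in some members. In the finer cluster led by RUNX1 and PTPRC, HSD11B2 was at 45.8 and 14.5 CPM and SGK1 at 62.6 and 77.4 CPM. In the one led by CST3 and DCN, HSD11B2 was at 89.9 and 55.7 CPM and SGK1 at 143 and 113 CPM.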
